A study of Homo sapiens with 15 samples.

Results

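The set described here is 34 genes of the endoplasmic reticulum (ER): its chaperones, its folding enzymes, its degradation machinery and the stress sensors and transcription factor of the unfolded protein response. The genes were chosen by symbol, and all 34 were found among the 20806 gene entries of the count tables. RNA sequencing was done on 15 libraries of C4-2 cells, a human castration-resistant prostate cancer line, which fall into 5 lines of 3 libraries each. All lines grew in medium with 5 mM glucose and 5% dialyzed serum. PNPLA2, the gene of the triglyceride lipase ATGL, was knocked out in 4 of the lines. KO_S404A is the knockout with an added ATGL in which alanine replaces a serine outside the active site, KO_WT is the knockout with added wild-type ATGL, KO_S47A is the knockout with added ATGL in which alanine replaces the catalytic serine, and KO is the knockout with nothing added. Scramble is the control line. Each genotype is 1 line, and the labels do not say whether a line is a clone or a pool or which promoter drives the added ATGL. The labels number the libraries of each line 1, 2 and 3 without saying what a number stands for or whether the libraries came from separate cultures, so that p-values measure the spread between these libraries, which may be technical.

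Proteins of the secretory pathway enter the ER through the SEC61 channel and fold there with the help of HSP70-type and lectin chaperones and of disulfide isomerases, and misfolded ones are retro-translocated and degraded. When unfolded protein accumulates, the sensors ERN1 (IRE1), ATF6 and EIF2AK3 (PERK) start the unfolded protein response: IRE1 splices XBP1 mRNA, ATF6 is cleaved into a transcription factor, and PERK raises translation of ATF4. XBP1 and ATF6 act on chaperone and degradation genes through short promoter elements, and secretory cells such as those of the prostate rely on these genes.

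Those elements are shown here because they are the feature that many of the 34 genes are known to share and that the expression values did not enter. Promoter windows of 250 bases before to 50 bases after the start of each gene (RefSeq, GRCh38.p14) were searched on both strands for 4 motifs: the ER stress element ERSE (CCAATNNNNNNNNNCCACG), ERSE-II (ATTGGNCCACG), the core of the XBP1 element UPRE (TGACGTG) and the C/EBP-ATF response element CARE (TGATGNAA). At least 1 window was listed for 30 of the 34 genes and for 27305 genes in all, and a gene with several windows counts once. DERL1, DERL3, PDIA3 and SEC24D had none listed. ERSE was present in 8 of the 30, against 0.0916% of all genes with a window. The 9 matches, read 5′ to 3′ along the motif with its fixed letters in capitals, were as follows.
HSPA5: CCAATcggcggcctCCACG
HSP90B1, upstream match: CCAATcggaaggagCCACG
HSP90B1, downstream match: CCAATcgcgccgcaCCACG
CALR: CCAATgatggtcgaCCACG
CANX: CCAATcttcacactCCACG
PDIA6: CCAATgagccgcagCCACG
CRELD2: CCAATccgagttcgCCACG
XBP1: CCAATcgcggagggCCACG
SERP1: CCAATtcgctgtctCCACG
The spacers had no letters fixed and differed from gene to gene. ERSE-II was present in HERPUD1, HYOU1 and SDF2L1, or 10% of the 30, against 0.0696% of all such genes. The UPRE core was present in DNAJC10, FKBP11, HYOU1 and SEC61A1, or 13.3% of the 30, against 2.40% of all such genes. CARE was present in HERPUD1 alone, or 3.33% of the 30, against 4.46% of all such genes.

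The 250 bases before the start are printed for 3 of these genes, HSPA5 as the best known target of the response, HERPUD1 as the gene that varied most between libraries, and HYOU1 as the gene with matches to both ERSE-II and the UPRE core; capitals mark every match inside the stretch.
HSPA5 (chr9:125241344-125241593, minus strand): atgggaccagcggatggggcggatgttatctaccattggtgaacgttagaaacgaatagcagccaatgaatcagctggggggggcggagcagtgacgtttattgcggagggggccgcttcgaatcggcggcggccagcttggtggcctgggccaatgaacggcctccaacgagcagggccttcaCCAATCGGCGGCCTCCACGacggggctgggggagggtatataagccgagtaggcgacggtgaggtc
HERPUD1 (chr16:56931892-56932141, plus strand): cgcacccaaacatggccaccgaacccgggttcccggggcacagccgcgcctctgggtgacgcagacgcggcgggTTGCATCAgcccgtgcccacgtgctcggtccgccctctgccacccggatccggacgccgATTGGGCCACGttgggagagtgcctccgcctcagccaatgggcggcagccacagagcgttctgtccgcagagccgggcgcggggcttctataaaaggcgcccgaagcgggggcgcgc
HYOU1 (chr11:119057206-119057455, minus strand): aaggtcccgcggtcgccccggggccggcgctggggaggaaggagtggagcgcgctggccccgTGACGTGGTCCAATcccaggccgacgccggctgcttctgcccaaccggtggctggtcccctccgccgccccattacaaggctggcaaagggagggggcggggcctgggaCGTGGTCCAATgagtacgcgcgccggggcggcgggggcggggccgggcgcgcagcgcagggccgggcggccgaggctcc
In HSPA5, which encodes the HSP70 chaperone BiP, ERSE began 66 bases before the start. In HERPUD1, whose product helps assemble the degradation complex, CARE on the opposite strand began 176 bases and ERSE-II 117 bases before the start. HYOU1, a large HSP70-type chaperone, held ERSE-II on the opposite strand at 185 and at 79 bases before the start. The UPRE core of HYOU1, 188 to 182 bases before the start, overlapped the first of these. A match is a description of letters and was not tested for binding.

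Between 40846694 and 64345775 reads were assigned to genes per library, and 14246 genes passed the filter on low counts, all 34 among them. PNPLA2 had 303, 443 and 493 CPM (counts scaled to the TMM-adjusted library size) in the KO_S404A libraries, 213, 207 and 240.5 CPM in KO_WT, 113, 110.2 and 164 CPM in KO_S47A, 13, 11.8 and 9.11 CPM in KO and 54.3, 47 and 45.3 CPM in Scramble, so that its level followed the labels. Luminal prostate markers were high in all libraries (KLK3 between 1829 and 3535 CPM), while of 8 markers of stroma, endothelium and blood CD3E was at 0, COL1A2, PECAM1, PTPRC and CD14 were at most 0.22 CPM, COL3A1 lay between 0.04 and 1.07 CPM, VWF between 5.06 and 14.7 CPM and COL1A1 between 9.76 and 23.2 CPM. The summed level of these 8 ranged between 22.5 and 35.1 CPM in KO_S404A, 23.6 and 24.7 CPM in KO_WT, 24.1 and 38.2 CPM in KO_S47A, 19.5 and 24.0 CPM in KO and 15.5 and 22.4 CPM in Scramble. Libraries 1 and 2 of a line were close to each other and library 3 stood apart in Scramble, KO_WT and KO_S47A. In KO_S404A all 3 libraries were unlike: it was 148 between libraries 1 and 2, 140 between 2 and 3 and 239 between 1 and 3. By this measure library 2 lay between the others, and libraries 1 and 3 were furthest apart. The comparisons of KO_S404A that use library 2 and 1 or both of the others are also given without library 2. As each library is bulk RNA, fewer cells that express a gene and less of its RNA per cell cannot be told apart.

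The 34 genes together took between 1.39% and 3.14% of the counts in genes. Scaled by the gene length in the files, CALR (calreticulin, a lectin chaperone) had the highest mean level, 1949 CPM per kilobase, followed by HSPA5 at 791 and P4HB, a disulfide isomerase, at 559 CPM per kilobase. DERL3, a derlin of the degradation channel, had the lowest at 4.21, next to the sensor ERN1 at 5.87 CPM per kilobase. The genes also differed in how far they ranged. HERPUD1 spanned 10.4-fold from its lowest to its highest library, DNAJB9 7.83-fold, SEC24D 5.97-fold and HSPA5 4.60-fold, whereas P4HB spanned 1.37-fold and DERL1 1.23-fold. The highest library was KO_S47A replicate 1 for 18 genes and KO_S47A replicate 2 for 14. XBP1 was highest in Scramble replicate 2, and DERL1 in KO_S47A replicate 3. The lowest library was a KO library for 20 genes and KO_S404A replicate 3 for 10.

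**Figure D1:**
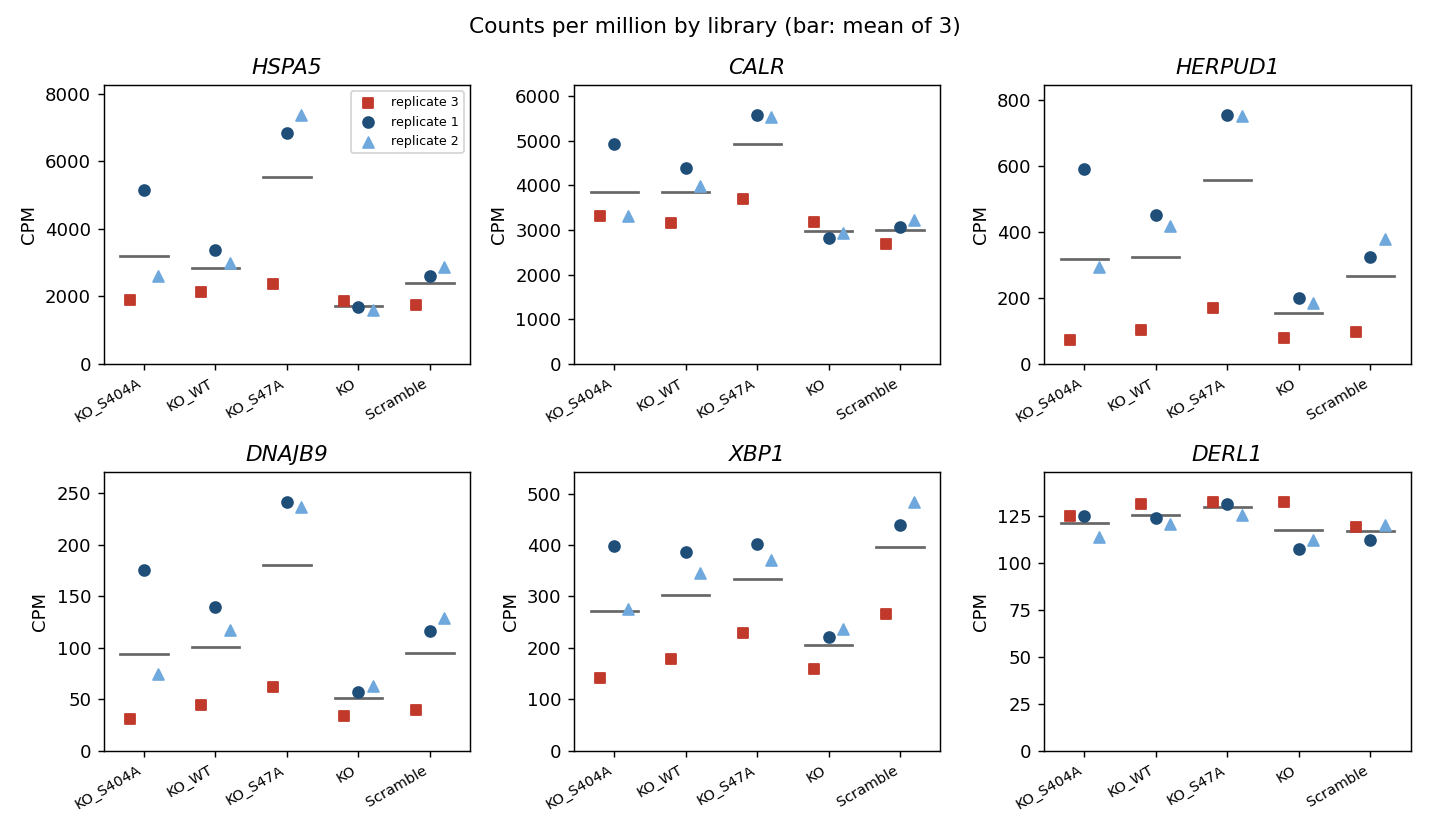
CPM of 6 of the genes (vertical axes, linear from 0) in each of the 15 libraries, by line (horizontal axis); squares, circles and triangles are replicates 3, 1 and 2, and the bar is the mean of the 3. HSPA5 in KO_S47A lies at 2375 CPM in replicate 3 and at 6848 and 7373 CPM in replicates 1 and 2, while DERL1 stays between 107.5 and 132.6 CPM in all libraries.

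The 34 genes moved with the replicate number of the library. With line as a covariate, 29 of the 34 fell in the libraries numbered 3 relative to those numbered 1 and 2 and none rose, in a comparison in which 45.3% of all genes were called and 23.1% were called lower (edgeR quasi-likelihood test, Benjamini-Hochberg adjusted p under 0.05 over 14246 genes). Without KO_S404A replicate 2, 31 fell (24.2% of all genes called lower). The median log2 fold change of the 34 was -0.44, and that of all genes -0.02. Each change below is a log2 fold change ± SE. The drop was steepest for HERPUD1, DNAJB9, SEC24D, ERN1 and HSPA13, and shallow for the most abundant folding enzymes. Between libraries numbered 2 and 1, edgeR and DESeq2 called 0% of genes, and none of the 34 had an unadjusted p under 0.05, against 2.80% of all genes (edgeR). By line, the median was negative in 4 lines and 0.06 in KO; those values and the test between lines follow the account by role.

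Among the HSP70 and HSP90 chaperones, 3 of 4 fell. HSPA5 measured 1877, 2127, 2375, 1871 and 1743 CPM in replicate 3 of KO_S404A, KO_WT, KO_S47A, KO and Scramble. In replicates 1 and 2 it measured 5141 and 2600 CPM in KO_S404A, 3369 and 2976 in KO_WT, 6848 and 7373 in KO_S47A, 1694 and 1603 in KO and 2590 and 2871 in Scramble. Replicate 3 was thus the lowest library of every line except KO, where it was the highest, and the log2 fold change over all lines was -0.69 ± 0.19 (SE; adjusted p = 0.00756). HSPA13, a microsomal HSP70 relative, measured 81.7, 97.4, 119, 87.7 and 91.2 CPM in replicate 3 of the same 5 lines, against 284 and 134, 227 and 204, 332 and 329, 113 and 124, and 186 and 203 CPM in their replicates 1 and 2. It was lowest in replicate 3 in all 5 lines and fell by 1.09 ± 0.15. HYOU1 fell by 0.61 ± 0.15. HSP90B1 (GRP94, the HSP90 of the ER) measured 1225, 1341, 1371, 1265 and 1084 CPM in replicate 3 of KO_S404A, KO_WT, KO_S47A, KO and Scramble, against 1994 and 1217, 1582 and 1446, 2442 and 2509, 1038 and 1043, and 1214 and 1256 CPM in replicates 1 and 2. Its ranges overlapped across numbers and it was not called (log2 fold change -0.25 ± 0.12, adjusted p = 0.118).

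The lectin chaperones and disulfide isomerases changed least. CALR measured 3312, 3168, 3689, 3175 and 2696 CPM in replicate 3 of KO_S404A, KO_WT, KO_S47A, KO and Scramble. Its replicates 1 and 2 had 4935 and 3317 CPM in KO_S404A, 4394 and 3990 in KO_WT, 5584 and 5543 in KO_S47A, 2824 and 2935 in KO and 3074 and 3229 in Scramble. The 3rd library was below both others in every line but KO, and CALR fell by 0.27 ± 0.09 (adjusted p = 0.0292), a call that was lost when 1 of several libraries was left out. CANX, the membrane-bound lectin chaperone calnexin, was not called (-0.12 ± 0.06). Of the isomerases, PDIA4 fell by 0.38 ± 0.11, PDIA3 by 0.22 ± 0.09 and P4HB by 0.19 ± 0.06, while PDIA6 had -0.20 ± 0.09 with an adjusted p of 0.0886.

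All 4 J-domain co-chaperones, which stimulate the ATPase of HSP70 proteins, fell. DNAJB9, which binds BiP and holds IRE1 inactive, measured 30.9, 43.9, 61.5, 33.7 and 39.2 CPM in replicate 3 of KO_S404A, KO_WT, KO_S47A, KO and Scramble. In replicates 1 and 2 it measured 175 and 74.7 CPM in KO_S404A, 139.6 and 117 in KO_WT, 242 and 236 in KO_S47A, 56.8 and 62.8 in KO and 116 and 128 in Scramble. Replicate 3 was lowest in all 5 lines, KO included, and the log2 fold change was -1.58 ± 0.18 (adjusted p = 6.37e-06). DNAJC10, a co-chaperone that also reduces disulfide bonds, measured 101, 107, 125, 109 and 144 CPM in replicate 3, against 209.9 and 134, 196 and 180.0, 234 and 230.0, 122 and 123, and 185 and 188 CPM in replicates 1 and 2 of the lines in the same order. It fell by 0.59 ± 0.10 and was lowest in replicate 3 in all 5 lines. DNAJC3, the inhibitor p58IPK, fell by 0.57 ± 0.14 and DNAJB11 by 0.31 ± 0.11.

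The 5 other folding factors all fell, by between 0.34 and 0.57. SDF2L1, a BiP cofactor, measured 40.9, 40.4, 58.5, 48.2 and 68.8 CPM in replicate 3 of KO_S404A, KO_WT, KO_S47A, KO and Scramble, against 78.3 and 54.1, 73.6 and 65.5, 91.7 and 88.2, 50.3 and 52.4, and 77.7 and 68.7 CPM in replicates 1 and 2. In Scramble its 3rd library lay within 1 CPM of replicate 2, and the log2 fold change over all lines was -0.44 ± 0.10. MANF, a secreted ER-resident neurotrophic factor, fell by 0.57 ± 0.13, CRELD2 by 0.52 ± 0.16, the proline isomerase FKBP11 by 0.40 ± 0.09 and the proline isomerase PPIB by 0.34 ± 0.10.

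Of the 8 genes of ER-associated degradation, 6 fell, and they held the steepest change of all. HERPUD1 measured 72.9, 102, 168, 78.8 and 97.7 CPM in replicate 3 of KO_S404A, KO_WT, KO_S47A, KO and Scramble. Its replicates 1 and 2 had 591 and 293 CPM in KO_S404A, 453 and 418 in KO_WT, 756 and 753 in KO_S47A, 198 and 184 in KO and 325 and 379 in Scramble. All 5 libraries numbered 3 lay below all 10 of the others, and the log2 fold change was -1.98 ± 0.17 (adjusted p = 9.14e-07). SYVN1 (HRD1, the ubiquitin ligase of the pathway) measured 72.6, 79.3, 89.3, 62.8 and 64.1 CPM in replicate 3, against 178 and 123, 128 and 121, 205 and 214, 86.4 and 68, and 119.6 and 125 CPM in replicates 1 and 2, lines in the same order. It fell by 0.82 ± 0.11, and its partner SEL1L by 0.87 ± 0.16. EDEM1, a lectin that routes glycoproteins to degradation, measured 45.4, 46.8, 50.5, 45.8 and 55.2 CPM in replicate 3, against 94.9 and 63, 71.3 and 63.4, 104 and 108, 54.6 and 52.7, and 75.6 and 80.05 CPM in replicates 1 and 2. It fell by 0.61 ± 0.10 and, like SYVN1 and SEL1L, was lowest in replicate 3 in all 5 lines. DERL3 fell by 0.44 ± 0.16 and OS9 by 0.23 ± 0.06. DERL1 (0.11 ± 0.05) and DERL2 (-0.25 ± 0.12) were not called, and DERL1 was the only one of the 34 with a positive value; its 3rd library was the lowest in none of the lines.

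The sensors and XBP1 fell as well, 3 of 3. XBP1 measured 141, 178, 228, 159 and 266 CPM in replicate 3 of KO_S404A, KO_WT, KO_S47A, KO and Scramble. Its replicates 1 and 2 had 398 and 276 CPM in KO_S404A, 386 and 346 in KO_WT, 403 and 372 in KO_S47A, 220.1 and 237 in KO and 439.9 and 485 in Scramble. It was lowest in replicate 3 in every line, with a log2 fold change of -0.87 ± 0.10 (adjusted p = 6.37e-06); counts per gene do not separate its spliced from its unspliced mRNA. ERN1 measured 14.3, 12.7, 11.8, 10.9 and 13.9 CPM in replicate 3, against 35.1 and 26.1, 28.1 and 24.2, 44.3 and 42.5, 19.4 and 15.4, and 26.5 and 27.1 CPM in replicates 1 and 2. All 5 libraries numbered 3 lay below the other 10, and ERN1 fell by 1.11 ± 0.13. ATF6 measured 72.4, 77.2, 83.5, 73.4 and 67.2 CPM in replicate 3, against 127 and 92.8, 115 and 98.2, 129.9 and 136, 79.8 and 82.7, and 84.9 and 87.2 CPM in replicates 1 and 2, and fell by 0.44 ± 0.08.

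All 4 genes of translocation and export fell. SEC24D, a cargo-binding subunit of the COPII coat, measured 27.9, 35.6, 43.1, 30.01 and 42.5 CPM in replicate 3 of KO_S404A, KO_WT, KO_S47A, KO and Scramble. In its replicates 1 and 2 the values were 119 and 76.3 CPM in KO_S404A, 92 and 79 in KO_WT, 148 and 167 in KO_S47A, 57 and 42.5 in KO and 85.6 and 94.1 in Scramble. Replicate 3 was the lowest library of each line, and SEC24D fell by 1.33 ± 0.15 (adjusted p = 6.37e-06). SERP1, which binds the SEC61 channel, measured 244, 283, 339.5, 288 and 312 CPM in replicate 3, against 498 and 322, 515 and 444, 625 and 608, 299 and 327, and 448 and 444 CPM in replicates 1 and 2. It fell by 0.59 ± 0.10. The channel subunits SEC61A1 and SEC61B fell by 0.31 ± 0.07 and by 0.32 ± 0.07.

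**Figure D2:**
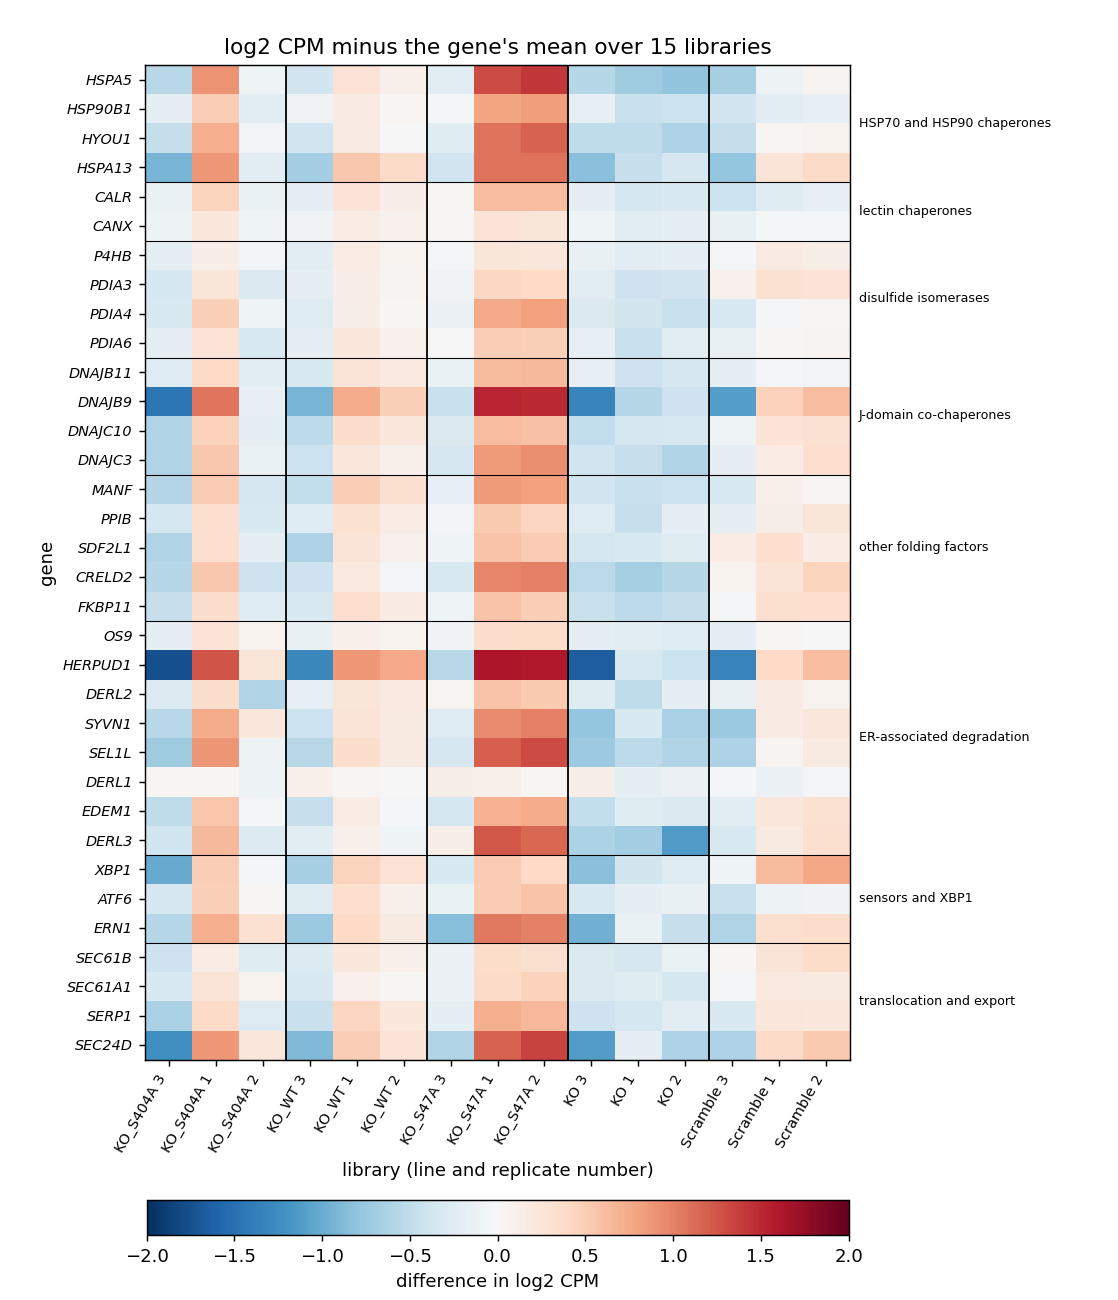
log2 CPM of each of the 34 genes (rows, grouped by role) in each of the 15 libraries (columns, by line and replicate number), minus the gene's mean over all libraries; red is above and blue below that mean. The KO_S47A replicates 1 and 2 are red for nearly all genes, replicate 3 is blue in most lines, and DERL1 is pale in every column. The KO libraries are blue for nearly all genes. Among them replicate 3 is the darkest for HERPUD1, DNAJB9, SEC24D and ERN1, and replicate 2 for DERL3.

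Taken line by line, the set declined in 4 lines, and in KO its median did not lie below 0. The median over the 34 genes of the log2 difference of replicate 3 from the mean of replicates 1 and 2 was -0.61 in KO_S404A, -0.51 in KO_WT, -0.86 in KO_S47A, 0.06 in KO and -0.36 in Scramble. Without replicate 2 of KO_S404A, the median difference of its replicate 3 from its replicate 1 was -0.98, so that the most negative line was then KO_S404A and not KO_S47A. Replicate 3 was the lowest library for 30, 33, 33, 13 and 32 of the 34 genes in these lines, against 37.6%, 43.8%, 45.2%, 36.1% and 41.2% of all tested genes. The 13 of 34 in KO is near the share of all genes, and replicate 3 of KO was the highest library for 17 (34.6% of all tested genes). It was lowest in all 5 lines for 12 genes (DNAJB9, DNAJC10, HERPUD1, SEL1L, SYVN1, EDEM1, XBP1, ATF6, ERN1, SERP1, SEC24D and HSPA13), against 15.4% of all tested genes, and in 4 lines for 18 more. In KO itself the largest declines were those of HERPUD1 (-1.28), DNAJB9 (-0.83), SEC24D (-0.71), ERN1 (-0.66), XBP1 (-0.52) and HSPA13 (-0.44). The largest positive differences of KO replicate 3 were those of HSP90B1 (0.28), DERL3 (0.28), DERL1 (0.27), DNAJB11 (0.22) and HSPA5 (0.18).

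A model with 1 term per line for replicate 3, added after the data had been seen, tested whether a line's difference was unlike that of KO. Replicate 3 of each line is 1 library in this model, so that its spread comes from the pairs of replicates 1 and 2 alone, with 5 residual degrees of freedom. With all 15 libraries edgeR called 0% of genes for each of the 4 lines against KO, although 16 of the 34 genes had an unadjusted p under 0.05 for KO_S404A, 8 for KO_WT, 25 for KO_S47A and 1 for Scramble, against 5.86%, 5.85%, 9.90% and 2.39% of all genes. DESeq2 called 7 of the 34 for KO_S47A, with 0.604% of all genes called, and none for KO_S404A (0.126% of all genes), KO_WT or Scramble (0% each). Without KO_S404A replicate 2 the KO_S404A difference is 1 library against 1, and the spread, with 4 residual degrees of freedom, comes from the pairs of the other 4 lines and is assumed to hold for KO_S404A. In that fit edgeR called 29 of the 34 for KO_S404A (6.65% of all genes), 13 for KO_WT (1.14%) and 28 for KO_S47A (4.92%), all more negative than in KO, and none for Scramble (0%). The difference in HSPA5 with all libraries was -1.77 ± 0.40 for KO_S47A against KO (adjusted p = 0.299). For HERPUD1 it was -0.89 ± 0.41 (adjusted p = 0.510).

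Between lines, the genes stood highest in KO_S47A and lowest in KO. In the model without replicate number no member was called in KO_S47A against KO (edgeR; 0.00702% of all genes called), although all 34 lay above 0 with a median log2 fold change of 0.78, against 0.01 for all genes, and 32 had an unadjusted p under 0.05 (16.8% of all genes). DESeq2 called 6 (0.232% of all genes). With replicate number as a block, 33 of the 34 rose, all except DERL1, in a comparison in which 22.1% of all genes were called and 10.6% were called higher; the median was 0.72. DESeq2 with the block also called 33 (26.5% of all genes), and edgeR on replicates 1 and 2 alone called 33 (21.6% of all genes). Leaving out KO_S47A replicate 2 lowered the count with the block to 13, with 401 genes called in all.

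The largest rises with the block belonged to DERL3 (1.66 ± 0.23, adjusted p = 0.00261), HERPUD1 (1.66 ± 0.23, 0.00261), DNAJB9 (1.60 ± 0.25, 0.00328) and HSPA5 (1.52 ± 0.28, 0.00439), followed by SEL1L (1.34 ± 0.24) and SEC24D (1.30 ± 0.21). DERL3 measured 32.8, 30.9 and 15 CPM in KO_S47A replicates 1, 2 and 3, against 8.61, 6.3 and 8.96 CPM in KO, with no overlap. HYOU1 measured 2099, 2241 and 840.5 CPM in KO_S47A, against 696, 646 and 700.0 CPM in KO, also with no overlap, and rose by 1.23 ± 0.22. HSPA5 was likewise separate in the 2 lines, whereas HERPUD1 in KO_S47A replicate 3, at 168 CPM, fell below KO replicates 1 and 2. By role, the 4 HSP70 and HSP90 chaperones rose with a median of 1.17, the degradation genes with 0.92 (7 of 8), the J-domain co-chaperones with 0.82 and the other folding factors with 0.80. The sensors and XBP1 had a median of 0.67, the translocation and export genes 0.63, the disulfide isomerases 0.59 and the lectin chaperones 0.52. XBP1 rose by 0.67 ± 0.14, ATF6 by 0.53 ± 0.12 and ERN1 by 0.97 ± 0.18, and the smallest called rises were P4HB (0.33 ± 0.09) and CANX (0.33 ± 0.09). DERL1 had 0.15 ± 0.08 and an adjusted p of 0.166.

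The excess of KO_S47A over KO was also taken at each replicate number. The median log2 difference over the 34 genes was 1.07 between the libraries numbered 1, 0.98 between those numbered 2 and 0.21 between those numbered 3, and all 34 genes lay above 0 at each number. Over all tested genes the corresponding medians were 0.00, 0.01 and -0.01. The block gives all lines the same shift per replicate number. The median difference of replicate 3 over the 34 genes was, however, -0.86 in KO_S47A and 0.06 in KO. A rise given with the block is thus an average over unlike differences.

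Against Scramble, the genes lay lower in KO. No member was called in the model without replicate number (edgeR; 2.69% of all genes called), with 8 at an unadjusted p under 0.05 (12.8% of all genes), a median log2 fold change of -0.47 against 0.02 for all genes, and 33 of 34 below 0; DESeq2 called 2 (4.86% of all genes). With replicate number as a block 10 fell and none rose, in a comparison in which 8.29% of all genes were called and 5.01% were called lower, and the median was -0.42. Those 10 were XBP1, PDIA3, DNAJC10, SDF2L1, CRELD2, FKBP11, DERL3, SEC61A1, SEC61B and SEC24D. The count with the block ranged between 2 and 24 when 1 library of either line was left out: it was 2 without KO replicate 1, Scramble replicate 2 or Scramble replicate 3, 3 without KO replicate 2 and 24 without KO replicate 3. The count over all genes moved as well, between 636 and 1450 with 1 library left out.

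XBP1 had the largest fall, -0.92 ± 0.14 (adjusted p = 0.000755), and its KO libraries, at 220.1, 237 and 159 CPM for replicates 1, 2 and 3, all lay below the Scramble libraries at 439.9, 485 and 266 CPM. PDIA3, a disulfide isomerase that works with the lectin chaperones, measured 676, 691 and 771 CPM in KO, against 1110, 1107 and 952 CPM in Scramble, and fell by 0.55 ± 0.13. FKBP11 measured 49.8, 51.5 and 52.8 CPM in KO, against 90.0, 90.5 and 70.2 CPM in Scramble, and fell by 0.68 ± 0.14. In all 3 genes the lines did not overlap. CRELD2 measured 85.8, 91.7 and 93.8 CPM in KO, against 163, 186 and 143 CPM in Scramble, and fell by 0.83 ± 0.23. DERL3, with 8.61, 6.3 and 8.96 CPM in KO against 15.7, 17.4 and 11.1 CPM in Scramble, fell by 0.86 ± 0.23. XBP1, CRELD2, DERL3 and SDF2L1, 4 of the 10, lie on chromosome 22; over the 30 genes on other chromosomes the median was -0.39 and 6 were called. HSPA5 (-0.39 ± 0.27), HERPUD1 (-0.67 ± 0.23) and DNAJB9 (-0.73 ± 0.25) were not called with the block. HSPA5 measured 1694, 1603 and 1871 CPM in KO, against 2590, 2871 and 1743 CPM in Scramble, where replicate 3 of KO lay above replicate 3 of Scramble. By replicate number the median difference of KO from Scramble was -0.58, -0.57 and -0.11 for numbers 1, 2 and 3.

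The 2 other added forms of ATGL were set against the same KO libraries, so that these comparisons are not independent of each other. In KO_WT against KO no member was called, with 0.0281% of all genes called by edgeR and 0.0562% by DESeq2, 2 members at an unadjusted p under 0.05 (7.58% of all genes), all 34 above 0 and a median of 0.43. In KO_S404A against KO no member was called, with 0.0211% of all genes called by edgeR and 0.0562% by DESeq2, 2 members at an unadjusted p under 0.05 (4.08% of all genes), all 34 above 0 and a median of 0.39. That median was 0.46 without KO_S404A replicate 2, 0.08 without KO_S404A replicate 1 and 0.56 without KO_S404A replicate 3. On replicates 1 and 2 alone, KO_S404A replicate 2 included, edgeR called 12 members higher in KO_S404A than in KO (2.81% of all genes). In KO_WT it called none (0.300%). The median difference of KO_WT from KO was 0.68, 0.51 and 0.03 for numbers 1, 2 and 3. For KO_S404A, whose libraries 1 and 2 were unlike each other, it was 0.84, 0.20 and -0.04. HSPA5 had a log2 fold change of 0.71 ± 0.40 in KO_WT against KO and 0.90 ± 0.40 in KO_S404A against KO, and HERPUD1 had 1.08 ± 0.77 and 1.05 ± 0.77. Without KO_S404A replicate 2 the values in KO_S404A against KO were 1.03 ± 0.45 for HSPA5 and 1.11 ± 0.88 for HERPUD1.

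KO_WT was set against KO_S47A, whose added ATGL lacks the catalytic serine. Each form is 1 line. PNPLA2 RNA also differed, at 213, 207 and 240.5 CPM in KO_WT against 113, 110.2 and 164.5 CPM in KO_S47A. The serine, the line and the level of the added PNPLA2 RNA therefore cannot be told apart here. All 34 genes lay below 0, with a median of -0.38 against 0.00 for all genes, and neither edgeR nor DESeq2 called a member (0% of all genes by edgeR and 0.0281% by DESeq2); 6 had an unadjusted p under 0.05 (2.17% of all genes). With 1 library left out the median ranged between -0.58, without KO_S47A replicate 3, and -0.20, without KO_WT replicate 3. HSPA5 measured 3369, 2976 and 2127 CPM in KO_WT replicates 1, 2 and 3, against 6848, 7373 and 2375 CPM in KO_S47A, a log2 fold change of -0.97 ± 0.40 (adjusted p = 0.998). In KO_S404A against KO_WT the median was -0.03 and 0 members were called (edgeR, 0% of all genes), with none at an unadjusted p under 0.05 (8.70% of all genes). The sign of this median depended on the libraries: it was 0.04 without KO_S404A replicate 2 and ranged between -0.33, without KO_S404A replicate 1, and 0.16, without KO_S404A replicate 3. In KO_WT against Scramble the median was 0.05 and 0 members were called (edgeR, 3.47% of all genes), again with none at an unadjusted p under 0.05 (14.8% of all genes). It ranged between -0.13, without Scramble replicate 3, and 0.18, without KO_WT replicate 3. DESeq2 called no member in either of these last comparisons (0% and 6.09% of all genes).

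**Figure D3:**
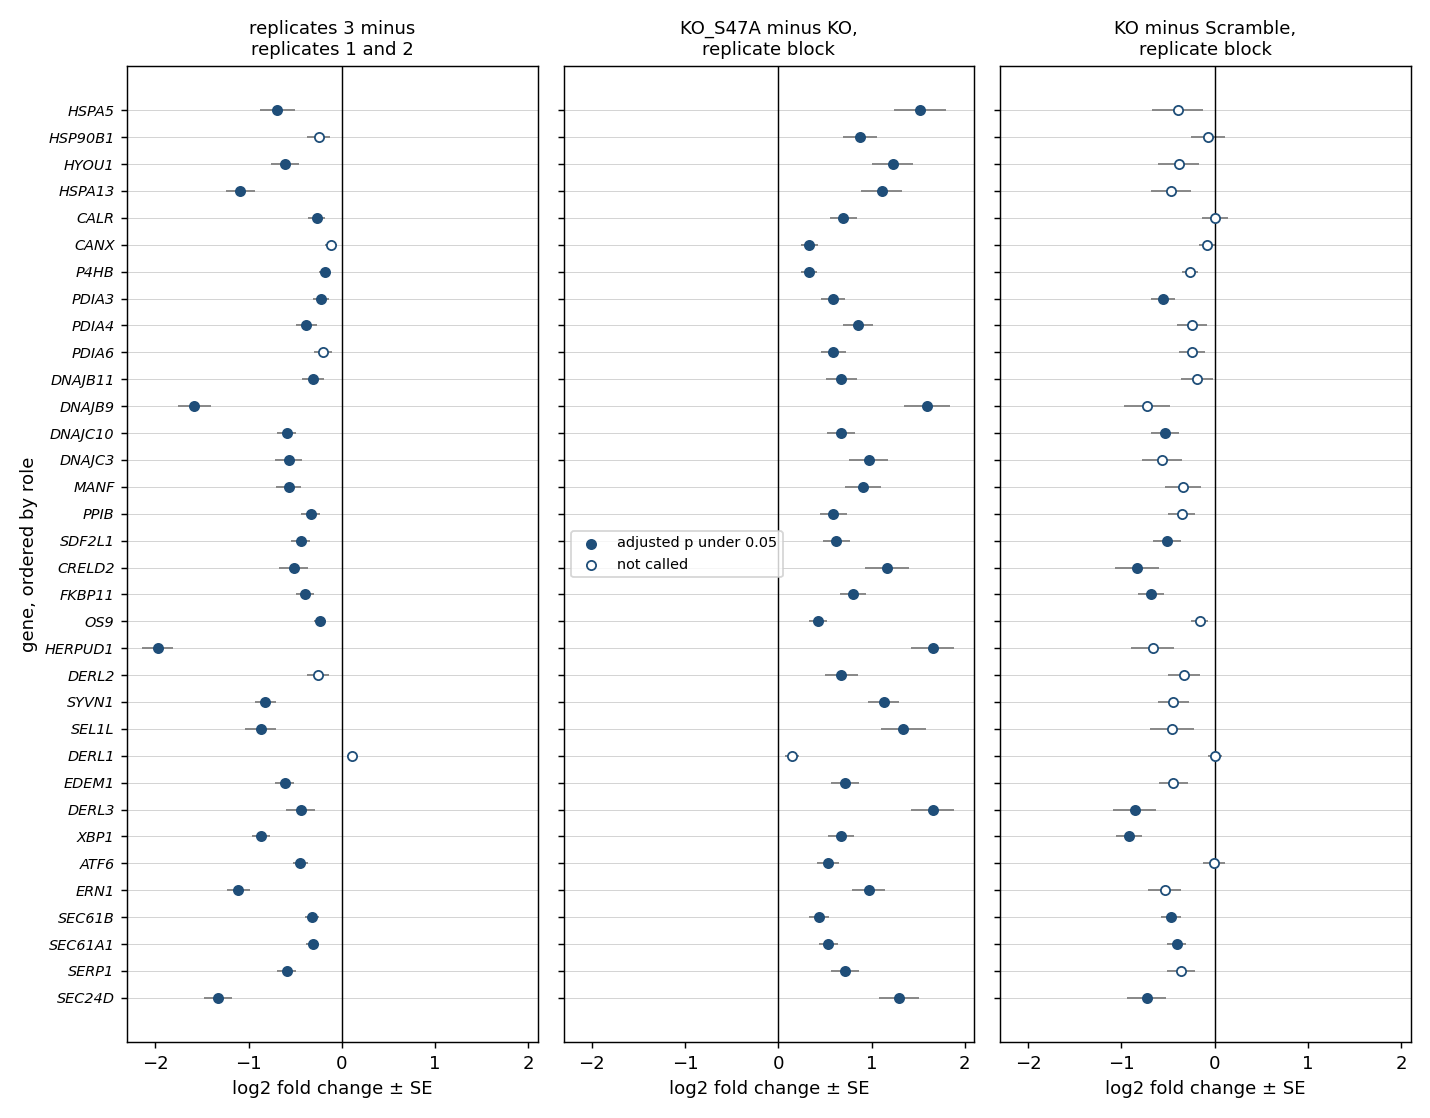
log2 fold change ± SE of each of the 34 genes (rows, grouped by role) for replicates 3 against replicates 1 and 2 (left), KO_S47A against KO with the replicate block (middle) and KO against Scramble with the replicate block (right); filled points have an adjusted p under 0.05. Filled points number 29 on the left, 33 in the middle and 10 on the right, and DERL1 is open in all panels.

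The same axes were followed in 4 other gene lists. A list of 20 genes was named for PERK and ATF4. Of these, 19 fell in the libraries numbered 3 (23.1% of all genes called lower) and none rose, with a median of -1.53. Counts do not measure the activity of PERK, and whether these genes changed through PERK was not tested. The largest falls were CHAC1 (-2.61 ± 0.17), a glutathione-degrading enzyme, SLC7A11 (-2.19 ± 0.13), the cystine carrier, and DDIT3 (-2.16 ± 0.24), the transcription factor CHOP. DDIT3 measured 11.2, 15.2, 27.7, 12.9 and 14.7 CPM in replicate 3 of KO_S404A, KO_WT, KO_S47A, KO and Scramble, against 116 and 47.1, 90.7 and 72.7, 161 and 169, 28.4 and 26.3, and 49.3 and 67 CPM in replicates 1 and 2. In KO, where the 34 ER genes barely moved as a group, the mean centred log2 CPM of this list was -1.21 in replicate 3, against -0.02 and -0.13 in replicates 1 and 2. Of 53 tested genes from a wider list of ER folding and quality control, 27 fell (23.1% of all genes called lower) and 9 rose, with a median of -0.21. The largest change was that of ERO1LB (-1.26 ± 0.21), an oxidase that recharges disulfide isomerases.

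Genes of the cytosolic and mitochondrial heat shock response went the other way: 10 of 16 rose in the libraries numbered 3 and 1, HSPA9, fell, with a median of 0.27. Over all genes 45.3% were called in this comparison, and 23.1% were called lower. HSPH1 (0.61 ± 0.09), DNAJB1 (0.56 ± 0.05) and HSP90AA1 (0.53 ± 0.07) had the largest rises. All 12 proliferation genes rose, with a median of 0.95, led by RRM2 (1.30 ± 0.11), CCNA2 (1.19 ± 0.14) and CDK1 (1.16 ± 0.11). Their summed level lay between 2943 and 3532 CPM in the libraries numbered 3, against 1204 to 2455 CPM in those numbered 1 and 2. Their part in the change of the ER genes was not tested. Without the block none of these 4 lists had a called gene in KO_S47A against KO or in KO against Scramble by edgeR. With it, in KO_S47A against KO, 22.1% of all genes were called and 10.6% were called higher. There 18 of 20 PERK and ATF4 genes rose (DDIT3 by 2.07 ± 0.33, ATF3 by 1.53 ± 0.26), and 32 of 53 genes of the wider ER list rose and 1 fell. In the same fit 10 of 16 heat shock genes fell (HSPH1 -0.75 ± 0.14) and all 12 proliferation genes fell (CCNA2 -1.02 ± 0.21, MKI67 -0.96 ± 0.24). In KO against Scramble with the block, 8.29% of all genes were called and 5.01% were called lower. There 2 of 20 PERK and ATF4 genes fell (ATF4 -0.63 ± 0.12, SLC7A11 -0.62 ± 0.18), and 7 of 53 genes of the wider ER list fell, led by SEC11C (-0.78 ± 0.17), a subunit of the signal peptidase. None of 16 heat shock genes was called and 1 of 12 proliferation genes, CDK1 (0.64 ± 0.16), rose. For the PERK and ATF4 list and the proliferation list these counts are near the share of all genes. Of the stroma, endothelium and blood markers tested, which were 3 of 8, VWF fell (-0.84 ± 0.08) and COL3A1 rose (1.47 ± 0.40) in the libraries numbered 3, and VWF (0.53 ± 0.11) and COL1A1 (0.55 ± 0.14) rose in KO_S47A against KO with the block. Their part in the change of the ER genes was not tested either.

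**Figure D4:**
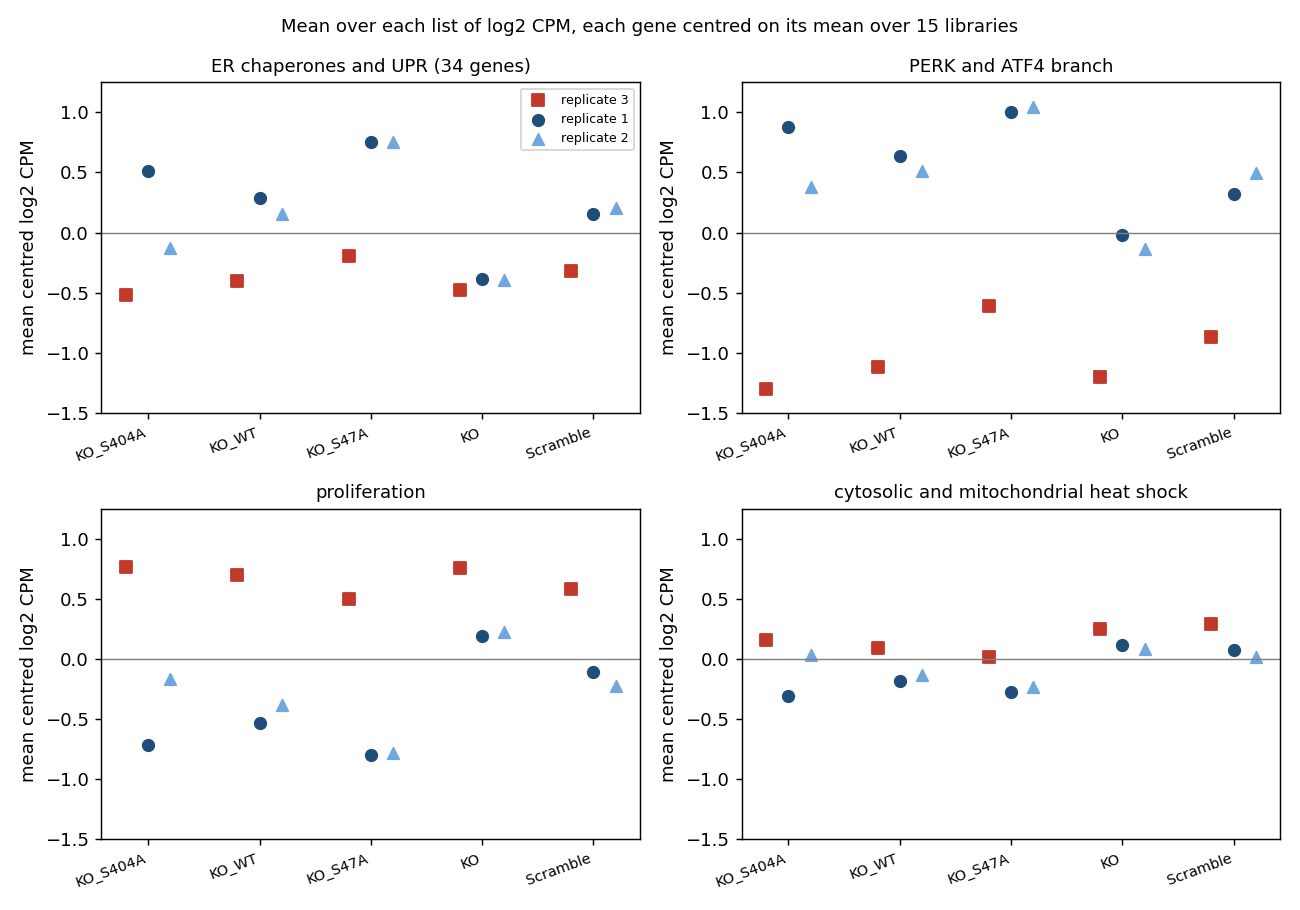
Mean over each gene list of log2 CPM, each gene first centred on its mean over the 15 libraries (vertical axes), by line (horizontal axes); squares, circles and triangles are replicates 3, 1 and 2. The 34 ER genes lie at -0.48, -0.39 and -0.39 in KO replicates 3, 1 and 2 and at -0.19, 0.75 and 0.76 in those of KO_S47A, the PERK and ATF4 list is lowest in replicate 3 of every line, and the proliferation list is highest there.

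Across the 15 libraries, which share line and replicate number, log2 CPM of the other 33 genes was compared with that of HSPA5 and of HERPUD1 as a description. PDIA4 (Pearson r = 0.997), HYOU1 (0.995) and SEL1L (0.983) were most like HSPA5. DNAJB9 (0.987), SEC24D (0.978) and HSPA13 (0.977) were most like HERPUD1 among the 34. Of the PERK and ATF4 genes compared, DDIT3 had an r of 0.995 with HERPUD1 and 0.897 with HSPA5, and ATF4 had 0.957 and 0.694. XBP1 was the gene of the 34 with the lowest r with HSPA5 (0.662) apart from DERL1 (0.359).

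The genes with and without an exact match to ERSE or ERSE-II had similar changes. The 11 genes with ERSE or ERSE-II had a median log2 fold change of -0.52 in the libraries numbered 3, against -0.44 for the 19 with neither. Those 19 include DNAJC10, FKBP11 and SEC61A1, which held the UPRE core. They also include DNAJC3 and SYVN1, which matched ERSE once 1 mismatch in CCAAT was allowed (33.3% of members, against 0.707% of all genes with a window). In KO_S47A against KO the medians without the block were 0.78 and 0.78, and in KO against Scramble -0.44 and -0.46. The range within each class, between -1.98 and -0.12 for the 11 genes and between -1.58 and -0.19 for the 19 in the libraries numbered 3, was wider than the difference between the medians. HERPUD1 and DNAJB9, the steepest of the 34, fell on either side: HERPUD1 held ERSE-II, and DNAJB9 held none of the 4 motifs in this window.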

How the data were processed

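Each deposited file holds raw counts per gene and FPKM values per gene that the authors made for 1 library. Per the submitters' processing notes, CASAVA and STAR were used; versions, the genome build and strand use in counting do not stand in these notes, so that antisense or overlapping genes cannot be told apart. The deposited FPKM values followed from the counts and gene lengths with a largest relative deviation of 1.4e-13 and were used only for that check and for the lengths. Entries that name no gene (13.2% to 20.6% of a library's counts) were left out.

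The counts were tested with edgeR 4.0.16 in R 4.3.3 (filterByExpr, TMM, quasi-likelihood F test, Benjamini-Hochberg adjustment over 14246 genes, threshold 0.05), which leaves 10 residual degrees of freedom for lines, 8 with replicate number and 5 in the model with 1 term per line for replicate 3. DESeq2 1.42.0 was an alternative. A standard error was taken as the size of the log2 fold change over the root of its F statistic. CPM used TMM-scaled library sizes. Replicate numbers come from the labels. Same-numbered libraries deviated together in 6 of 7 line comparisons, where every correlation of their deviations from the line means lay between 0.126 and 0.652, above the limit of 0.1, and not in KO_S404A against KO (lowest 0.0197). Deviations from a line's mean cancel out within the line. A difference of replicate 3 shared by the lines can thus raise the correlation at the other numbers as well. Correlations between unlike numbers were not computed, so that these values do not show that libraries of the same number belong together.

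The members and the other lists were chosen with earlier results of these data known. Every library's value is given for the 10 members with the smallest adjusted p in the replicate-number comparison and for HSPA5, HSP90B1, CALR, HERPUD1, DNAJB9, SDF2L1, XBP1, ATF6 and ERN1. From the other lists only some called genes are named, those with the largest changes and at most 3 per list and comparison. Fewer than 3 are named for several lists, and none for the wider ER list in KO_S47A against KO. HSPA9, ATF4 and the stroma, endothelium and blood markers, and the members shown for KO_S47A against KO and KO against Scramble, were picked after their values were seen. Promoter windows are those of RefSeq, GRCh38.p14, matched by symbol for 30 of the 34 members. The models were tested on simulated data. Alternatives covered size factors, the filter on low counts, the replicate block, the libraries used and each left-out library.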

Additional observations from a re-analysis of the deposited data

How the results depend on the processing

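The median change of the 34 genes in the libraries numbered 3 kept its direction under every alternative run. Between 20 and 33 genes were called lower with 1 library or 1 line left out, and 28 with DESeq2 or with RLE size factors. The count over all genes, in either direction, ranged between 5065 and 6862 in the left-out fits. CALR, PDIA3, PDIA4, P4HB, DNAJB11, CRELD2, DERL3, PPIB and OS9 lost their call under at least 1 of these settings. The calls between lines depended on how the replicate number was treated. Without the replicate block, and with it, edgeR called 383 and 1181 genes (0 and 10 members) in KO against Scramble, 4 and 15 genes (0 members both times) in KO_WT against KO, 1 and 3150 genes (0 and 33 members) in KO_S47A against KO, 0 and 3 genes in KO_WT against KO_S47A, and 494 and 1429 genes in KO_WT against Scramble. KO_S404A against KO gave 3 and 14 genes, but its same-numbered libraries did not deviate together. The block changed no member's call in the other comparisons. On replicates 1 and 2 alone the counts were 770 genes and 11 members for KO against Scramble, 43 genes for KO_WT against KO, 3098 genes and 33 members for KO_S47A against KO, 403 genes and 12 members for KO_S404A against KO, and 2 genes for KO_WT against KO_S47A. DESeq2 gave 693 genes and 2 members, 8 genes, 33 genes and 6 members, 8 genes, and 4 genes in these comparisons in the same order, and 868 genes for KO_WT against Scramble. A fit of 2 lines only gave 7 members for KO against Scramble, where the count over all genes is not given here, 2 genes for KO_WT against KO and 1 gene for KO_S404A against KO. With 1 library left out and no block, the counts ranged between 205 and 384 genes for KO against Scramble, 1 and 15 genes and 0 and 6 members for KO_S47A against KO (the 15 and the 6 without KO_S47A replicate 3), 1 and 4 genes for KO_S404A against KO, and 240 and 573 genes for KO_WT against Scramble. With the block they ranged between 636 and 1450 genes and 2 and 24 members for KO against Scramble (713 genes without Scramble replicate 3, 647 without KO replicate 2), and between 401 and 3852 genes and 13 and 33 members for KO_S47A against KO. There the count was 401 genes and 13 members without KO_S47A replicate 2, 1047 genes without KO replicate 1, 1575 without KO replicate 2 and 1129 without KO_S47A replicate 1. The difference of replicate 3 relative to KO, with 0 genes called by edgeR, gave 86 genes and 7 members for KO_S47A and 18 genes for KO_S404A with DESeq2. Without KO_S404A replicate 2 it gave 165 genes and 13 members for KO_WT, 712 genes and 28 members for KO_S47A, and 961 genes and 29 members for KO_S404A. The cause of these changes was not tested. Block fits with a library left out, DESeq2 with the block, the tests of this difference and medians without the chromosome 22 members were chosen after seeing the data. The median of the 34 genes kept its sign under every alternative in KO_S47A against KO and KO against Scramble. Of the 9 best known members, some with values near 0 changed sign, and none of these values was called. In KO against Scramble, CALR (-0.0105) had 0.0048 with the replicate block and ranged between -0.0815 and 0.0297 with 1 library left out, and ATF6 (-0.0206) ranged between -0.1298 and 0.0316. With 1 library left out, SDF2L1 in KO_S404A against KO (0.199) ranged between -0.0821 and 0.3947, and XBP1 in KO_WT against KO_S47A (-0.138) between -0.3472 and 0.1329. In KO_S404A against KO_WT all 9 changed sign under at least 1 alternative (34 of 108 values), and in KO_WT against Scramble 3 did (8 of 117). Counting error was largest for DERL3, whose lowest library had 6.30 CPM.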
